A study of Mus musculus with 6 samples.

Results

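Egr1, Egr2, Egr3, Klf2, Klf4, Klf6, Klf10, Ier2, Ier3 and Ier5 are early genes of 3 families, the early growth response, Krüppel-like and immediate early response genes. They were chosen by name, with earlier results of these data known, and all 10 were found among the 23122 genes of the deposited count table. The tumors were CT26, a murine colorectal carcinoma line, seeded under the skin of female BALB/c mice aged 6 to 8 weeks at 500000 cells per injection. Treatment began after random assignment at a tumor volume of 100 to 200 mm3. In the 3 TP-18 tumors the mouse had received TP-18, named in the series title as a dual antagonist of the prostaglandin E2 receptors EP2 and EP4, orally each day at 50 mg/kg over 3 weeks. In the 3 vehicle tumors it had received the vehicle over the same time. All 6 are whole tumors of 1 line in hosts with their own immune system, so each value mixes cancer and host cells. The labels do not say whether each tumor came from its own mouse, and p-values measure only the spread between these samples. Total counts were 35470258, 35347034 and 36489081 in TP-18 tumors 1 to 3 and 35163739, 34813482 and 34882701 in vehicle tumors 1 to 3. Vehicle 1 and vehicle 3 stood farthest apart of any pair within a group, at a chi-square of 92.1 per gene against 18.7 to 47.0 for the other pairs.

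Immediate early genes are transcribed within minutes of a growth factor, stress or cyclic AMP signal, without new protein synthesis. Serum response factor with its ternary complex partners, and the cyclic AMP response element binding protein, are the best known activators at their promoters. EGR and Krüppel-like proteins are themselves zinc finger transcription factors that bind GC-rich DNA, whereas the IER proteins have no zinc fingers. EP2 and EP4 both raise cyclic AMP when prostaglandin E2 binds. These genes also respond to tissue excision and handling, which is background to any measurement in a resected tumor.

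The genes are short, with 1 to 5 exons in the principal transcript of each. Ier2 and Ier5 have 1 exon, Egr1, Egr2, Egr3 and Ier3 have 2, Klf2 has 3, Klf6 and Klf10 have 4 and Klf4 has 5. Their spans run from 1199 bases for Ier3 to 9248 bases for Klf10. In GENCODE release M21 no other gene overlaps any of the 10, so counting without strand would add no reads from an annotated overlapping gene.

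RefSeq promoter windows of GRCm38.p6, which hold 250 bases before and 50 bases from the start site on, were matched for 6 of the 10 genes. The sequences of Klf4, Klf6, Ier5 and Klf2 are shown because Klf6 lay close to each of the other three in its deviations across the 6 tumors, as described further on. That of Egr2 is shown because, of the 6 genes whose windows were searched, it alone had a CArG box, the core of the serum response element. Capitals mark a CArG box or TGACG, the core of the cyclic AMP response element TGACGTCA, on either strand.
Klf4 promoter (GRCm38.p6, chr4:55532426-55532725, minus strand): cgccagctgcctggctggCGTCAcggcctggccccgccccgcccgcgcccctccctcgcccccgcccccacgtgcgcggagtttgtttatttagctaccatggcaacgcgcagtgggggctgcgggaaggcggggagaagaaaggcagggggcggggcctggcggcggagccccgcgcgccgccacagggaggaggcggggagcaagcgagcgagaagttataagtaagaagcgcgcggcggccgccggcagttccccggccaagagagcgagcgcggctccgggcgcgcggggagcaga
Klf6 promoter (GRCm38.p6, chr13:5861239-5861538, plus strand): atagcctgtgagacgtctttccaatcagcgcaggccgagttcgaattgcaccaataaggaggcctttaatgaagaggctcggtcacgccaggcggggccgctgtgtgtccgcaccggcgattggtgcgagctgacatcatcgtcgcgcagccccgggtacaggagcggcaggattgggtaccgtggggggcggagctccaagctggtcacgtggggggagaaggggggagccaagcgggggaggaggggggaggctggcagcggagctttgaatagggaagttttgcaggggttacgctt
Ier5 promoter (GRCm38.p6, chr1:155099587-155099886, minus strand): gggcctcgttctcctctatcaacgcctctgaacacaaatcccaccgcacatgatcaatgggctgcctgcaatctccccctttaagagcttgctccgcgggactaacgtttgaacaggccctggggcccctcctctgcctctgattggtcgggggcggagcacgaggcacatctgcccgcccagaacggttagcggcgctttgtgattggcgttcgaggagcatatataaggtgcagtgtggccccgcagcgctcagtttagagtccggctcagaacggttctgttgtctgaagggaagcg
Klf2 promoter (GRCm38.p6, chr8:72318812-72319111, plus strand): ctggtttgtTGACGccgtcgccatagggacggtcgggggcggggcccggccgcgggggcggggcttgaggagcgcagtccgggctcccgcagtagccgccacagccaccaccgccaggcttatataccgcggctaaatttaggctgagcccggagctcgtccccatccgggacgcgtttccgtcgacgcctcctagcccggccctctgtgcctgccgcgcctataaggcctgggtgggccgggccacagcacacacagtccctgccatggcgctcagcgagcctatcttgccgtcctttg
Egr2 promoter (GRCm38.p6, chr10:67537619-67537918, plus strand): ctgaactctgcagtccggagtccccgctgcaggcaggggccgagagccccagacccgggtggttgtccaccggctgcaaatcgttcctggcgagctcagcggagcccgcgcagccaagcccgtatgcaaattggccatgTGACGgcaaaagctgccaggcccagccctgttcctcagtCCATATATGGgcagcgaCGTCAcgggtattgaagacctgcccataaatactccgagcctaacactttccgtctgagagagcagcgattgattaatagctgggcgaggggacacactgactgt
Of 32851 promoter windows of all genes, 1.63% held a CArG box, 20.8% held TGACG and 1.79% held the full TGACGTCA, on either strand. None of the 6 searched genes had the full element in a listed window. Egr2 had 5 listed windows, of which 4 held a CArG box. Those with starts at 67537869, 67537870 and 67537930 overlap and hold the same box, while that at 67537566 holds another. Each other searched gene had a single window, so more sequence was searched for Egr2, and the shares above are per window. In the window shown the box lay 72 to 63 bases before the start, between matches to TGACG at 111 to 107 and at 55 to 51 bases before it, and no motif overlapped another. Klf4 and Klf2 had 1 match to TGACG each, 232 to 228 and 241 to 237 bases before the start. No match was found in the windows of Klf6, Ier5 and Ier3, which says only that these letters are not in those windows. Windows of Egr1, Egr3, Klf10 and Ier2 were not searched, so whether these genes have either motif was not tested.

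All 10 genes were expressed in every tumor. In the authors' FPKM values Egr1 stood highest, at 85.5 ± 12.3 FPKM in TP-18 tumors and 166 ± 52.6 FPKM in vehicle tumors (SD, n = 3 each). Its FPKM values overlapped those of no other member within either group. Klf6 came next in level, with 64.1 ± 5.26 FPKM in TP-18 tumors and 76.6 ± 11.0 FPKM in vehicle tumors. Ier3 had 43.1 ± 4.82 FPKM in TP-18 tumors and 74.5 ± 37.5 FPKM in vehicle tumors, where its values overlapped those of Klf6. Ier2, Klf4, Klf2, Klf10 and Ier5 lay between 25.0 and 31.7 FPKM as means of the TP-18 group and between 26.9 and 41.8 FPKM as means of the vehicle group. Neighbours in the order from Ier3 to Ier5 overlapped in their tumor values, except Klf10 and Ier5 in vehicle tumors. Egr3 and Egr2 were the lowest, at 2.55 ± 0.90 and 1.20 ± 0.20 FPKM in TP-18 tumors and 2.58 ± 0.78 and 1.37 ± 0.43 FPKM in vehicle tumors. The order of the 10 genes by mean FPKM was the same in both groups. That order rests on the authors' gene lengths, which the values put at 7553 bases for Klf4 and 9083 for Egr2. These exceed the whole spans of the 2 genes, 5339 and 7720 bases, so their FPKM values are not per length of transcript. FPKM values divide by total library counts, while the CPM values that follow are scaled by TMM, the trimmed mean of M values. In CPM, which divides by no length, vehicle means were 319 for Klf4 and 341 for Klf6. In TP-18 tumors the mean CPM of Klf6 (258) lay above that of Egr1 (250).

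Every member had a lower mean in TP-18 than in vehicle tumors, and Egr1 and Klf10 passed the test. The test was edgeR's quasi-likelihood F test, with p-values adjusted over 14189 genes by the Benjamini-Hochberg method and a threshold of 0.05. It called 2 of the 10 genes lower and 0 higher, while 5.26% of all tested genes were called lower, 7.09% higher and 12.4% in either direction. The number called was 5 without vehicle 1, 1 without vehicle 2 or vehicle 3, and 0 without any one of the TP-18 libraries. The share of all tested genes called lower moved too. It was 6.99% without vehicle 1, 0.766% without vehicle 2, 2.98% without vehicle 3 and 0.77% to 1.49% without a TP-18 library. For 5 of the 10 genes every TP-18 tumor was lower than every vehicle tumor, as for 17.8% of all tested genes, where 35.8% of tested genes had groups that did not overlap in either direction. The median log2 change was -0.38 over the 10 genes and -0.01 over all tested genes, of which 51.1% had a negative change. In whole tumors, fewer cells that express a gene and less of its RNA per cell cannot be told apart. Every TP-18 tumor also held more T cell, macrophage and skeletal muscle marker RNA, and less red blood cell marker RNA, than every vehicle tumor, and the part of these in the changes was not tested. Summed over the 10 genes, the level was 1031, 1059 and 1105 CPM in TP-18 tumors 1 to 3, against 1628, 1643 and 1686 CPM in vehicle tumors 1 to 3. Egr1 made up 48.0% of that difference in means, and Egr1, Klf4 and Klf6 together 79.4%.

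Scaling bears on these values. TMM factors were 1.03 to 1.07 in TP-18 libraries and 0.918 to 1.00 in vehicle libraries, and scaling to total counts instead raised the median log2 change of all genes by 0.14. With total counts, all 10 changes stayed negative with a median of -0.24, and Egr1 alone was called. The split of calls over all genes moved with it: TMM gave 1006 higher and 747 lower, and total counts gave 1593 higher and 268 (1.89% of tested genes) lower. On the FPKM scale the groups did not overlap for Egr1 and Klf10, 2 of the 10, where 7.67% of tested genes were lower without overlap.

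**Figure D1:**
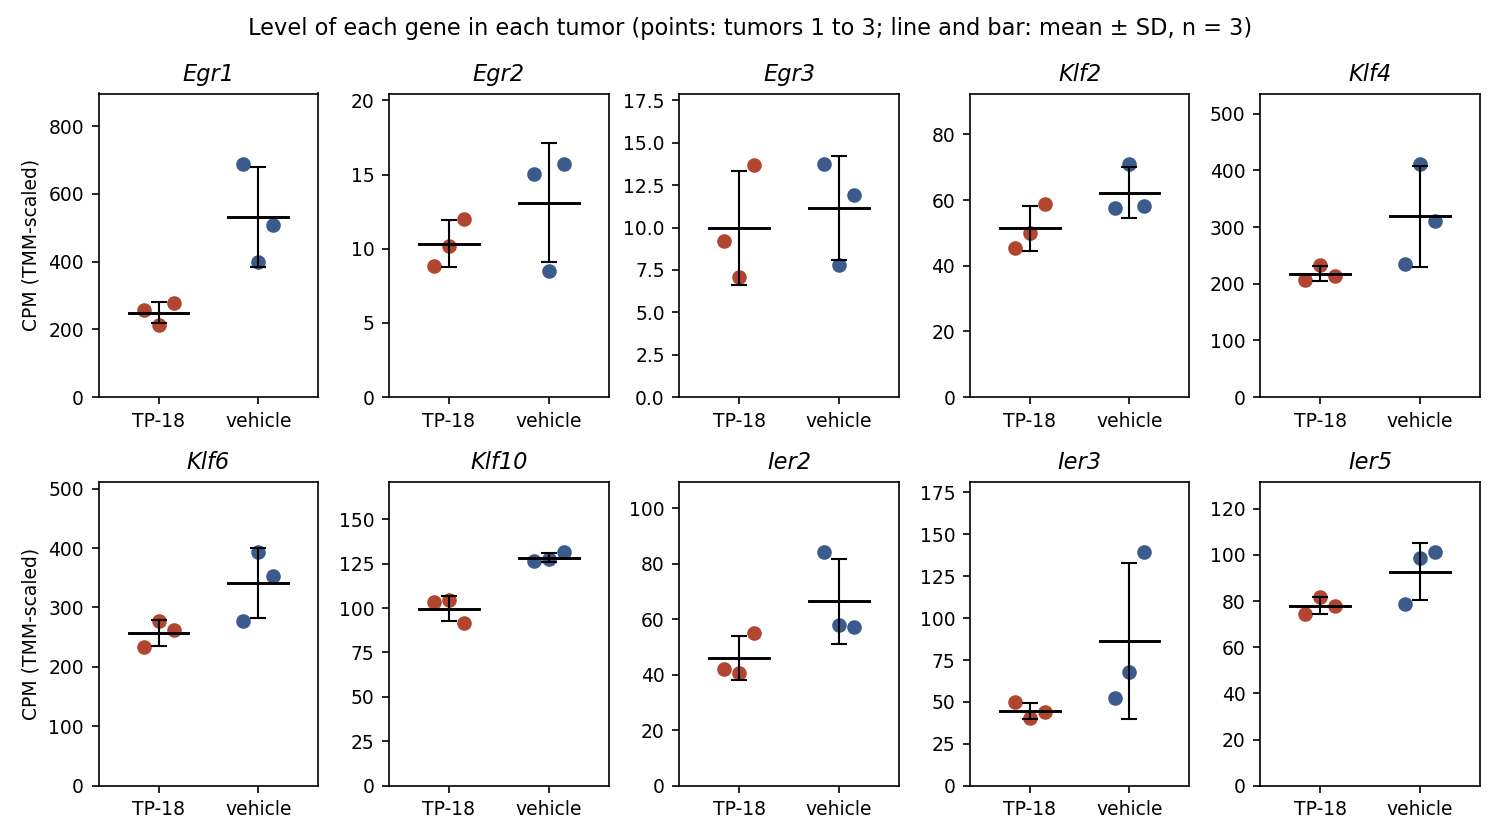
Level of each of the 10 genes in each tumor, in TMM-scaled CPM on axes that start at 0, with TP-18 tumors in red on the left of each panel and vehicle tumors in blue on the right. The black line and bar give the mean ± SD of 3 tumors. Egr1 (214 to 277 CPM in TP-18 and 399 to 689 CPM in vehicle tumors) and Klf10 (91.5 to 104 CPM in TP-18 and 126 to 131 CPM in vehicle tumors) are the genes called lower.

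Egr1 (Entrez 13653, chromosome 18, 34861207 to 34864956, plus strand, GRCm38.p6) encodes a transcription factor that is among the most rapidly induced genes after mitogen stimulation. TP-18 tumors 1 to 3 measured 258, 214 and 277 CPM, against 689, 399 and 507 CPM in vehicle tumors 1 to 3. The lowest vehicle tumor was 1.44 times the highest TP-18 tumor, and vehicle 1 stood highest. The group means were 250 ± 32.0 CPM for TP-18 and 532 ± 147 CPM for vehicle (SD, n = 3 each). Egr1 fell by 1.09 ± 0.20 on the log2 scale (SE, adjusted p = 0.0202, edgeR), 0.469-fold of vehicle with a 95% interval of -1.57 to -0.61 on the log2 scale. The adjusted p was 0.0666, 0.0625 and 0.0610 without TP-18 1, 2 and 3 in turn and 0.0143 to 0.0430 without any one vehicle library, with log2 changes of -1.25 to -0.84 over these 6 fits. DESeq2 gave an adjusted p of 1.74e-07 and limma on log2(FPKM + 1) without a filter on low values gave 0.110, the ends of the range over all 18 alternatives.

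Egr2 (Entrez 13654, chromosome 10, 67534469 to 67542188, plus strand) encodes a factor known from myelination and from T cell anergy. It measured 8.82, 10.2 and 12.0 CPM in TP-18 tumors 1 to 3, against 15.1, 8.48 and 15.7 CPM in vehicle tumors 1 to 3. Vehicle 2 was the lowest of all 6 tumors, so the groups overlapped. The log2 change was -0.34 ± 0.24 (SE, adjusted p = 0.388, edgeR), with a 95% interval of -0.91 to 0.22. Egr3 (Entrez 13655, chromosome 14, 70077317 to 70082613, plus strand), a close relative of Egr2 that acts beside it in T cells, measured 9.19, 7.09 and 13.7 CPM in TP-18 tumors and 13.8, 7.81 and 11.9 CPM in vehicle tumors. Each group held a tumor near 13.7 CPM and another below 8 CPM. The log2 change of Egr3 was -0.16 ± 0.29 (SE, adjusted p = 0.746, edgeR), its 95% interval ran from -0.84 to 0.51, and its sign turned, to 0.034 without vehicle 1 and to 0.032 without TP-18 2. The difference between the Egr1 change and those of Egr2 and Egr3 was not tested.

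Klf10 (Entrez 21847, chromosome 15, 38291464 to 38300711, minus strand), first known as a TGF-beta inducible early gene, had the least spread within the vehicle group. It measured 103, 104 and 91.5 CPM in TP-18 tumors 1 to 3, against 126, 127 and 131 CPM in vehicle tumors 1 to 3. The lowest vehicle tumor was 1.21 times the highest TP-18 tumor. Klf10 fell to 99.7 ± 7.11 CPM in TP-18 tumors, against 128 ± 2.70 CPM in vehicle tumors (SD, n = 3 each), a log2 change of -0.37 ± 0.08 (SE, adjusted p = 0.0248, edgeR) or 0.776-fold. Leaving out vehicle 1 kept the call, at an adjusted p of 0.0327. It was lost on leaving out vehicle 2 (0.0836) or vehicle 3 (0.0566), on leaving out TP-18 1 (0.0646), 2 (0.0563) or 3 (0.0992), and with total counts (0.0918). Over all 18 alternatives it ran from 0.00274 to 0.102.

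Klf4 (Entrez 16600, chromosome 4, 55527137 to 55532475, minus strand) encodes a factor of epithelial differentiation and of endothelium that is also used to reprogram cells to pluripotency. TP-18 tumors 1 to 3 had 207, 233 and 214 CPM and vehicle tumors 1 to 3 had 235, 412 and 311 CPM. Vehicle 2 was the highest tumor, and vehicle 1 lay 1.72 CPM above the highest TP-18 tumor. The log2 change was -0.55 ± 0.19 (SE, adjusted p = 0.105, edgeR), with a 95% interval of -1.0 to -0.10. Klf4 was called by DESeq2 (adjusted p = 0.0159) and, in the edgeR fit without vehicle 1, at an adjusted p of 0.0120, while the range over its alternatives was 0.0120 to 0.330.

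Klf6 (Entrez 23849, chromosome 13, 5861489 to 5870393, plus strand), a widely expressed factor of the same family, showed the same ordering of tumors within the vehicle group. It had 234, 278 and 261 CPM in TP-18 tumors 1 to 3, against 276, 393 and 353 CPM in vehicle tumors 1 to 3. TP-18 2 lay just above vehicle 1, so the groups overlapped by 1.10 CPM. The log2 change was -0.40 ± 0.13 (SE, adjusted p = 0.0876, edgeR). It passed in 3 of the 18 alternatives, without a filter on low counts (0.0475), by DESeq2 (0.0278) and without vehicle 1 (0.0135), and its adjusted p reached 0.324 in the others. Klf2 (Entrez 16598, chromosome 8, 72319062 to 72321654, plus strand), a factor of quiescent T cells and of endothelium under flow, had 45.4, 49.9 and 58.8 CPM in TP-18 tumors and 57.6, 71.1 and 58.2 CPM in vehicle tumors. TP-18 3 exceeded both vehicle 1 and vehicle 3, and the log2 change was -0.28 ± 0.12 (SE, adjusted p = 0.179, edgeR), with a 95% interval of -0.57 to 0.01.

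Ier2 (Entrez 15936, chromosome 8, 84661331 to 84662852, minus strand) encodes a nuclear protein induced by growth factors. It measured 42.1, 40.5 and 55.1 CPM in TP-18 tumors 1 to 3, against 84.2, 58.0 and 57.2 CPM in vehicle tumors 1 to 3. Vehicle 1 was the highest, as for Egr1, and TP-18 3 came within 2.06 CPM of the lowest vehicle tumor. The log2 change was -0.53 ± 0.19 (SE, adjusted p = 0.105, edgeR), with a 95% interval of -0.97 to -0.10, and DESeq2 alone called it, at 0.0233 in a range of 0.0233 to 0.414.

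Ier3 (Entrez 15937, chromosome 17, 35821713 to 35822911, plus strand), also called IEX-1, encodes a stress-inducible regulator of cell survival. Its levels were 49.8, 40.3 and 44.1 CPM in TP-18 tumors 1 to 3 and 52.2, 67.7 and 139 CPM in vehicle tumors 1 to 3. Vehicle 3 was 2.67 times vehicle 1, the widest spread within a group of any member. The log2 change was -0.95 ± 0.38 (SE, adjusted p = 0.168, edgeR), and without vehicle 3 it was -0.41 with an adjusted p of 0.103, in a range of 0.0817 to 0.341 over the alternatives. Vehicle 3 also held the most neutrophil marker RNA, at a summed 378 CPM against 73.9 and 96.7 CPM in the other vehicle tumors, and the most red blood cell marker RNA, at 395 CPM against 66.3 and 183 CPM. It was highest in summed fibroblast markers too, at 6509 CPM against 2360 and 2492 CPM, and lowest in endothelial markers, at 83.0 CPM against 187 CPM in each of the others. The part of these in the Ier3 value was not tested. Ier5 (Entrez 15939, chromosome 1, 155096367 to 155099636, minus strand), a relative of Ier2 tied to the heat shock response, had 74.2, 81.6 and 78.0 CPM in TP-18 tumors and 78.6, 98.6 and 101 CPM in vehicle tumors. Its groups overlapped through TP-18 2 and vehicle 1. The log2 change of Ier5 was -0.25 ± 0.11 (SE, adjusted p = 0.158, edgeR), and it was called in the fit without vehicle 1 alone (0.0256, in a range of 0.0256 to 0.567).

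**Figure D2:**
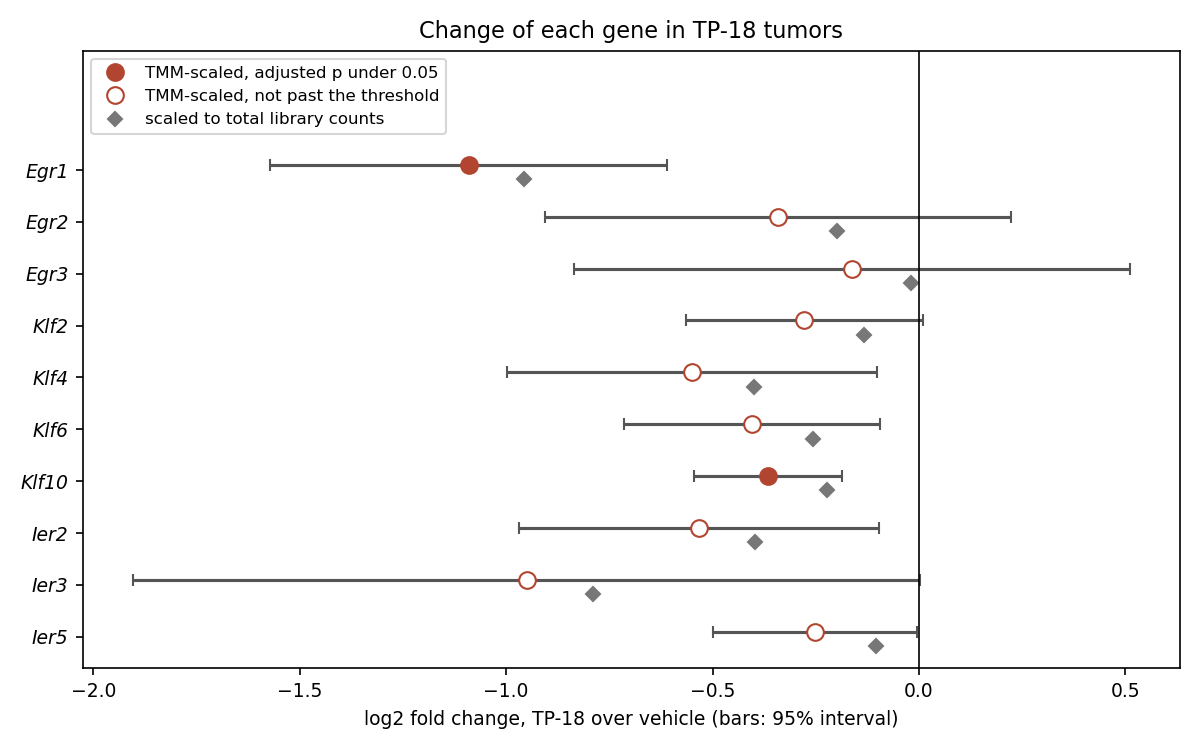
Log2 fold change of each gene in TP-18 over vehicle tumors from edgeR. Red circles with bars give the TMM-scaled value and its 95% interval (filled for an adjusted p under 0.05), and grey diamonds give the value with libraries scaled to total counts. All points lie left of 0, from -1.09 for Egr1 to -0.16 for Egr3 with TMM, and Egr1 and Klf10 are the filled points.

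The members differed in which vehicle tumor was highest. Of the 10 genes, 3 peaked in vehicle 1 (Egr1, Egr3 and Ier2), 3 in vehicle 2 (Klf2, Klf4 and Klf6) and 4 in vehicle 3 (Egr2, Klf10, Ier3 and Ier5), and none peaked in a TP-18 tumor. The lowest tumor was TP-18 1 for 4 genes, TP-18 2 for 4, TP-18 3 for Klf10 and vehicle 2 for Egr2. Likeness between genes was measured as the root mean square difference of log2 CPM over the 6 tumors, with each gene centred on its own mean, and all values share the same 6 libraries and scaling. It includes the difference between the groups, so genes with a similar change in TP-18 tumors come out alike. Among the 45 pairs of members the closest were Klf6 with Ier5 at 0.10, Klf4 with Klf6 at 0.12, Klf10 with Ier5 at 0.14 and Klf2 with Klf6 at 0.15. The median of 9748 other genes lay 0.21 from Ier5, 0.22 from Klf10, 0.23 from Klf2, 0.28 from Klf6 and 0.36 from Klf4, and a gene that varies little, as Ier5 and Klf10 do, lies nearer to most genes. Klf4 lay 0.21 from Ier5 and 0.22 from Klf2. Egr2 and Egr3 were 0.25 apart.

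Set against the same 9748 genes, whose mean log2 CPM was 3 or more, those closest to Egr1 were Dmp1 at 0.19, Hbegf, a ligand of the EGF receptor, at 0.20 and Gap43 at 0.21, where the median gene was 0.58 away. For each member the 3 nearest of all these genes were picked, so they lie below the median by choice. Nearest to Ier2 were Slc14a1, Kcnk2 and Spry4, an inhibitor of receptor tyrosine kinase signalling, at 0.07 to 0.09. Ier3 lay nearest to Fcna, 4931406C07Rik and Ankrd37 at 0.18 to 0.19. The median gene was 0.36 from Ier2 and 0.60 from Ier3. Klf4 was closest to Gtf2ird1, Ptp4a1 and Pacsin3 at 0.07 to 0.09, Klf6 to Slc25a30, Atp2b1 and Lnx2 at 0.01 to 0.05, and Klf2 to Gpc1, Skil and Slc41a1 at 0.06 each. Klf10 was closest to 2310061I04Rik, Gnas and Acbd6, and Ier5 to Abi1, Fkbp9 and Sec23a, all at 0.03. Egr2 had Cd80, Bmp2 and Zfp985 nearest at 0.15 to 0.16, and Egr3 had Rab30, Sele and Ier5l nearest at 0.18 to 0.21, with the median gene 0.38 from Egr2 and 0.41 from Egr3.

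**Figure D3:**
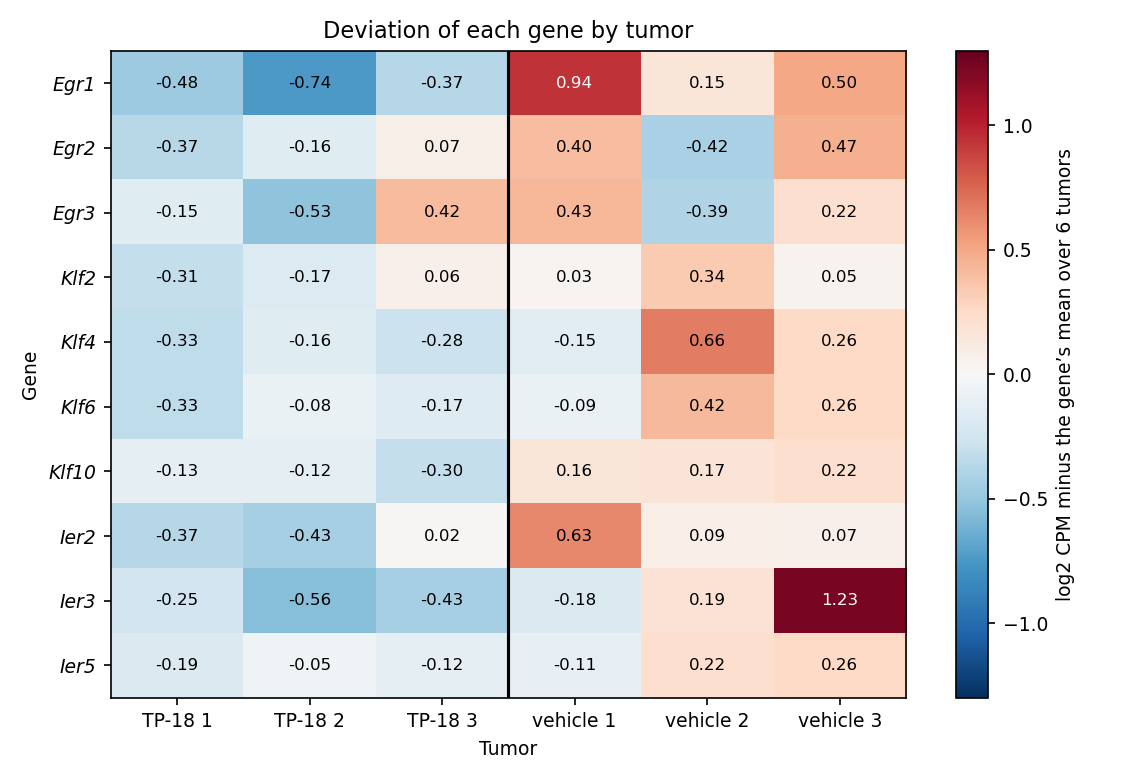
Deviation of each gene (rows) in each tumor (columns, TP-18 tumors left of the line and vehicle tumors right of it) from its own mean over 6 tumors, in log2 CPM, with red above and blue below the mean. Egr1 and Ier2 are highest in vehicle 1, Klf2, Klf4 and Klf6 in vehicle 2, and Ier3 stands out in vehicle 3 at 1.23.

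Of 13 further Krüppel-like genes listed, 10 were tested, 1 fell and 1 rose, where 5.26% of all tested genes fell and 7.09% rose, so the counts lie near those shares. They had a median log2 change of -0.14 that was -0.01 with total counts. Klf5, a factor of proliferating gut epithelium, fell to 29.9 ± 1.84 CPM in TP-18 tumors, against 54.9 ± 8.21 CPM in vehicle tumors (SD, n = 3 each), a log2 change of -0.87 ± 0.12 (SE, adjusted p = 0.00623, edgeR). It passed in all 6 fits that left out a library, at adjusted p-values of 0.00140 to 0.0287. Klf8 rose by 2.30 ± 0.48 (SE, adjusted p = 0.0234, edgeR) on 27, 33 and 43 reads in TP-18 tumors against 3, 7 and 8 in vehicle tumors. Removing vehicle 2, or a single one of the TP-18 libraries, ended that call, at adjusted p-values of up to 0.0936. Klf12 and Klf13 had log2 changes of 1.39 (adjusted p = 0.0529) and 0.31 (adjusted p = 0.0671), and both passed with total counts. Nab1 and Nab2, corepressors that bind EGR proteins, had log2 changes of 0.05 (adjusted p = 0.765) and -0.11 (adjusted p = 0.604), and that of Nab2 was 0.03 with total counts. Ier5l had a log2 change of -0.07 (adjusted p = 0.865), which was 0.07 with total counts.

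Serum response factor and its partners did not pass the test in transcript level with all 6 libraries. Of this factor and 5 partners, 0 of 6 were called by edgeR or DESeq2 and 0 had an unadjusted p under 0.05 by edgeR. Over all tested genes the shares were 5.26% lower and 7.09% higher by edgeR, and 8.22% and 9.77% by DESeq2. They were 14.6% and 15.3% at an unadjusted p under 0.05, and among 6 genes a count of 0 is no result about the list. The 6 genes had a median log2 change of 0.06 that was 0.20 with total counts. Srf itself measured 73.1 ± 7.02 CPM in TP-18 tumors and 77.4 ± 9.02 CPM in vehicle tumors (SD, n = 3 each), a log2 change of -0.08 (adjusted p = 0.655, edgeR) that was 0.06 with total counts. Elk1, Mrtfa and Mrtfb had log2 changes of -0.21, 0.22 and 0.15, and Mrtfa passed without vehicle 1 (0.0464, edgeR). Transcript levels say nothing of the activity of these proteins.

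Immediate early genes outside the 3 families included 6 that fell. Of 22 listed, 21 were tested and 0 rose by edgeR, where 5.26% of all tested genes fell and 7.09% rose. At an unadjusted p under 0.05, 8 were lower and 2 higher, and DESeq2 called 8 lower and 1 higher. Over all genes the shares were 14.6% lower and 15.3% higher at an unadjusted p under 0.05, and 8.22% lower and 9.77% higher by DESeq2. The list's median log2 change was -0.58. With total counts, where 1.89% of all genes fell, 4 of the list fell, Myc and Jun no longer among them, and the median was -0.44. The number lower was 11 without vehicle 1, 5 without vehicle 3 and 3 without vehicle 2 or any one of the TP-18 libraries, while 6.99% of all genes were lower without vehicle 1, 2.98% without vehicle 3 and 0.766% to 1.49% in the other 4 fits. Junb, an AP-1 subunit, fell to 167 ± 14.5 CPM in TP-18 tumors, against 278 ± 28.0 CPM in vehicle tumors (SD, n = 3 each), a log2 change of -0.73 ± 0.10 (SE, adjusted p = 0.00614, edgeR). Plk2, a serum-inducible kinase, fell by 1.33 ± 0.20 on the log2 scale (SE, adjusted p = 0.0118, edgeR). Fosl1, another AP-1 subunit, fell by 0.58 ± 0.10 (SE, adjusted p = 0.0136, edgeR). Both Junb and Fosl1 passed in all 6 fits without one library, whereas Plk2 missed without TP-18 3 (0.0555).

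Myc, a regulator of cell growth, fell by 0.68 ± 0.13 on the log2 scale (SE, adjusted p = 0.0163, edgeR), and Maff, a small MAF factor, fell by 0.75 ± 0.16 (SE, adjusted p = 0.0251, edgeR). Jun, also of AP-1, fell by 0.45 ± 0.10 (SE, adjusted p = 0.0292, edgeR) but passed in 1 of the 6 fits without one library, the one without vehicle 1. Myc passed in 3 of those fits and Maff in 2. Nr4a1, an orphan nuclear receptor, had 21.8, 25.2 and 26.3 CPM in TP-18 tumors against 26.5, 45.8 and 49.4 CPM in vehicle tumors (adjusted p = 0.0809, edgeR), and passed without vehicle 1 (0.00295). Arc, a neuronal early gene, had 48, 40 and 61 reads in TP-18 tumors against 18, 28 and 18 in vehicle tumors (adjusted p = 0.0980, edgeR). Fos, chosen after its values were seen, had 13.2, 22.0 and 18.2 CPM in TP-18 tumors and 13.6, 39.6 and 35.2 CPM in vehicle tumors, so vehicle 1, the highest tumor for Egr1, was the lowest vehicle tumor for Fos. Its adjusted p was 0.308 with all 6 libraries and 0.0215 without vehicle 1 (edgeR).

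**Figure D4:**
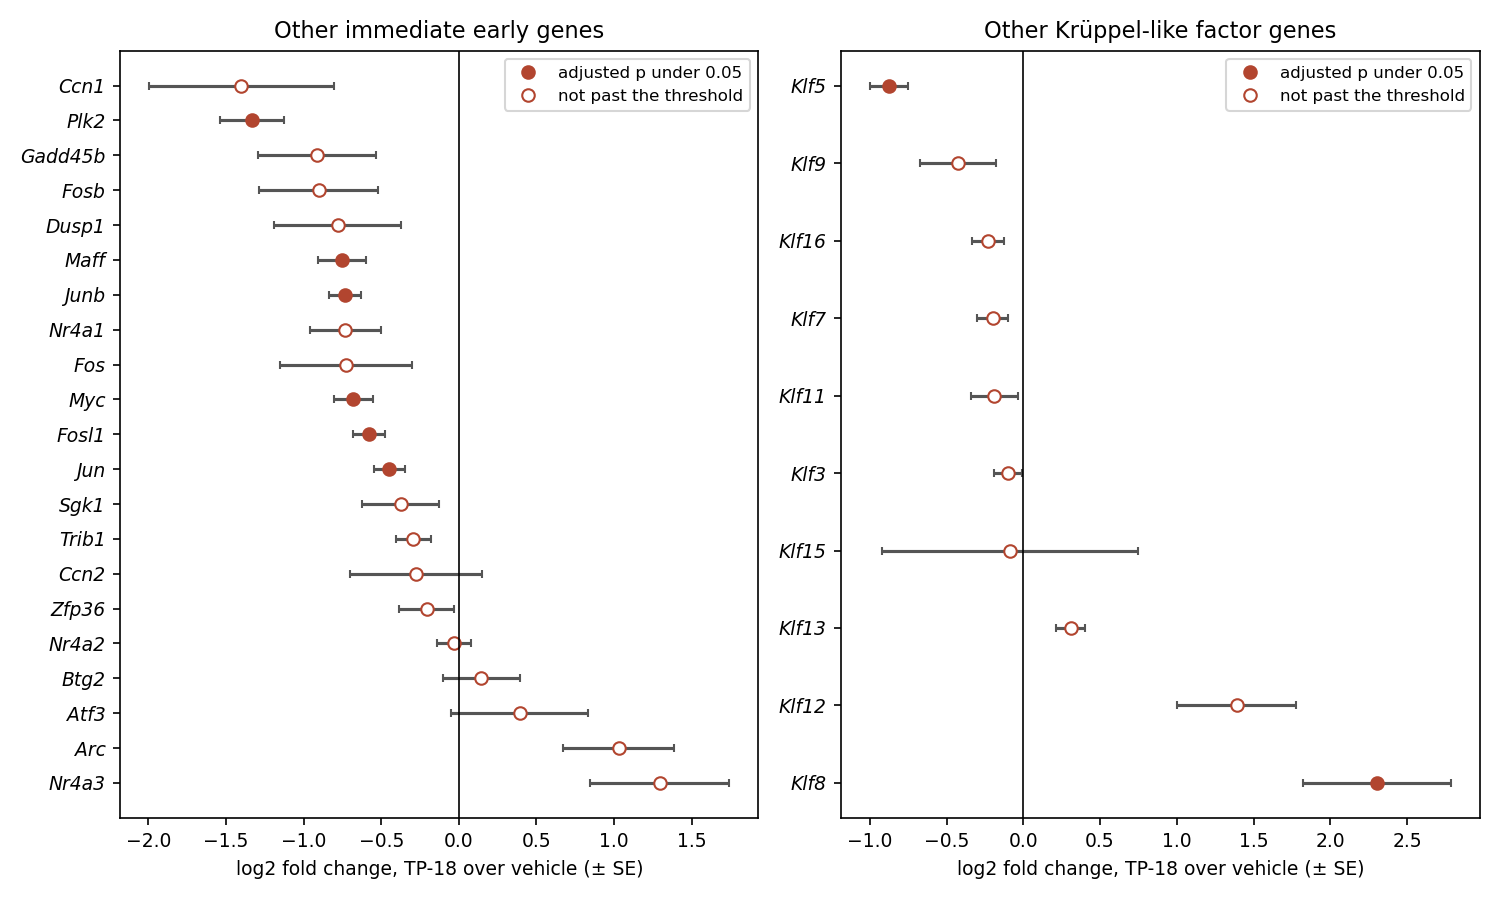
Log2 fold change ± SE from edgeR, TP-18 over vehicle, for the tested immediate early genes outside the EGR, Krüppel-like and IER families (left) and the other tested Krüppel-like genes (right), with filled circles for an adjusted p under 0.05. On the left 6 of 21 genes are called and all of these are negative, and on the right Klf5 is called lower and Klf8 higher.

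Among 8 genes known to be induced by EGR1 or KLF2, 1 fell and 0 rose by edgeR, with 1 lower and 1 higher at an unadjusted p under 0.05, while DESeq2 called 1 lower and 0 higher. Over all tested genes, 5.26% fell and 7.09% rose by edgeR. The shares were 14.6% and 15.3% at an unadjusted p under 0.05, and 8.22% and 9.77% by DESeq2, so the counts lie near them. The median log2 change of the 8 genes was -0.25, and -0.11 with total counts. Pdgfa, a growth factor gene with an EGR1 site in its promoter, fell to 22.6 ± 4.15 CPM in TP-18 tumors, against 32.9 ± 2.72 CPM in vehicle tumors (SD, n = 3 each), a log2 change of -0.54 ± 0.14 (SE, adjusted p = 0.0446, edgeR). It passed in 2 of the 6 fits without one library and not with total counts (0.0918). Tgfb1, a cytokine gene, had a log2 change of -0.14 (adjusted p = 0.378, edgeR). Of the receptors named in the title, Ptger4, which encodes EP4, rose by 1.77 ± 0.27 (SE, adjusted p = 0.00770, edgeR) on 268, 215 and 384 reads in TP-18 tumors against 93, 58 and 73 in vehicle tumors. Ptger2, which encodes EP2, had 46, 115 and 62 reads in TP-18 tumors and 32, 7 and 26 in vehicle tumors (adjusted p = 0.105, edgeR), and Ptger1 had a log2 change of 0.08 (adjusted p = 0.865, edgeR).

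Inducible heat shock genes, which also react to handling of tissue, did not pass in any of 6 tested by edgeR or DESeq2. By edgeR 0 had an unadjusted p under 0.05. Over all tested genes, 5.26% were lower and 7.09% higher by edgeR, and 8.22% and 9.77% by DESeq2. At an unadjusted p under 0.05 the shares were 14.6% and 15.3%. With 6 genes, a count of 0 is no result about the list. Of the 6 genes 5 had a negative log2 change, with a median of -0.78, and of -0.62 with total counts. Hspa1b had 15.3, 26.4 and 11.1 CPM in TP-18 tumors and 14.0, 96.0 and 116 CPM in vehicle tumors. Dnajb1 had 109, 142 and 89.7 CPM in TP-18 tumors against 115, 198 and 309 CPM in vehicle tumors. Hsph1 and Hspa1a had log2 changes of -0.69 and -0.90. In vehicle 1, where Egr1 was highest, both Hspa1b and Dnajb1 were within the range of the TP-18 tumors. In vehicle 2 and vehicle 3 both lay above that range. Klf2, Klf4, Klf6, Klf10, Ier3 and Ier5 were higher in vehicle 2 and vehicle 3 than in vehicle 1, and Egr1, Egr3 and Ier2 were lower. The margin was small for Klf10, at 126 CPM in vehicle 1 against 127 CPM in vehicle 2 and 131 CPM in vehicle 3. For Klf2 it was small in vehicle 3, at 58.2 CPM against 57.6 CPM in vehicle 1. Egr2 was lower in vehicle 2 and higher in vehicle 3. Without vehicle 1, Hspa1b (0.0245) and Hspa1a (0.0391) were called lower by edgeR, as were 6.99% of all tested genes. Tumors were cut out after the mice had been killed and were kept in liquid nitrogen, per the labels. The part of handling in the changes of the early genes was not tested.

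Markers of some other cell types moved with the groups, while the sums of endothelial, neutrophil and fibroblast markers overlapped between them. All 9 T cell markers rose, with a summed level of 77.2 to 87.3 CPM in TP-18 tumors and 14.4 to 29.1 CPM in vehicle tumors. Of 8 macrophage markers 2 rose (1795 to 2063 CPM in TP-18 and 915 to 1389 CPM in vehicle tumors). Among the macrophage markers Mrc1 alone had a negative log2 change, of -0.64 (adjusted p = 0.303, edgeR). Of 8 skeletal muscle markers 6 rose (60.6 to 120.3 CPM in TP-18 and 10.8 to 33.7 CPM in vehicle tumors). Of 5 tested red blood cell markers 4 fell (14.8 to 33.9 CPM in TP-18 and 66.3 to 395 CPM in vehicle tumors), while Slc4a1 had 0 to 3 reads in each library. With all 6 libraries 7.09% of all tested genes rose and 5.26% fell. Over the 6 fits without one library, the number called ranged from 4 to 9 for T cell and 2 to 6 for macrophage markers. It ranged from 2 to 6 for muscle and 0 to 5 for red blood cell markers, while 388 to 1216 of all genes were higher. The red blood cell count was 0 without vehicle 2 or any one of the TP-18 libraries. In those fits 0.766% to 1.49% of all tested genes were lower. At an unadjusted p under 0.05 by edgeR, all 5 tested red blood cell markers were lower in each of the 6 fits. Their median log2 change was -3.74 to -2.49 over these fits. By edgeR 0 of 9 endothelial, 0 of 7 neutrophil and 0 of 8 fibroblast markers passed; at an unadjusted p under 0.05 these counts were 0, 0 and 1, and DESeq2 called 1, 0 and 1. Summed fibroblast markers were 2684 to 4250 CPM in TP-18 and 2360 to 6509 CPM in vehicle tumors, and neutrophil markers 95.9 to 159 CPM in TP-18 and 73.9 to 378 CPM in vehicle tumors. The endothelial sum, which concerns Klf2 and Klf4, was 139 to 284 CPM in TP-18 and 83.0 to 187 CPM in vehicle tumors. Of the 9 endothelial markers 8 had a positive log2 change, where 51.1% of all tested genes had a negative one. Their median log2 change was 0.78, 0.91 with total counts, and 0.28 to 0.99 over the fits without one library. Of 8 matched colon epithelial markers, 5 had too few reads to be tested. Among them Epcam had 7, 8 and 24 reads in TP-18 and 0, 0 and 2 in vehicle tumors, Cdx2 had 2 to 7 reads in TP-18 and 8 to 16 in vehicle tumors, and Vil1 had 0 to 8 reads in TP-18 and 0 to 2 in vehicle tumors. Krt8 had 6 to 7 reads in TP-18 and 8 to 23 in vehicle tumors, and Krt19 had 0 to 9 in TP-18 and 4 to 94 in vehicle tumors. The 3 tested markers differed in direction. Cdh1, the epithelial cadherin, had 131, 137 and 195 reads in TP-18 tumors against 37, 68 and 77 in vehicle tumors (log2 change 1.15, adjusted p = 0.0647, edgeR), and it was called higher with total counts and by DESeq2. Krt18 had 224, 274 and 156 reads in TP-18 tumors against 300, 338 and 416 in vehicle tumors (log2 change -0.86, adjusted p = 0.0649, edgeR). Krt20, the most abundant of the 3, fell to 6838, 8221 and 7809 reads in TP-18 tumors, against 12016, 10300 and 8406 in vehicle tumors (log2 change -0.60, adjusted p = 0.0204, edgeR), a call lost with total counts and without vehicle 2, TP-18 1 or TP-18 3. The part of any of these cell types in the changes of the 10 early genes was not tested.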

How the data were processed

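Bulk RNA sequencing covered 6 tumors. Per the submitters' processing notes, fastp, HISAT2, HTSeq and GRCm38 were used; tool versions, strandedness and the treatment of multiply mapped reads were not given in the sources used here. Deposited counts are whole reads for each gene, and the authors' FPKM table divides each count by a gene length and the library's total count, as the values show.

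The members and gene lists were chosen with earlier results of these data known. Named genes are the 10 members, up to 4 of each list by smallest p (up to 8 other immediate early genes), and the 3 nearest genes per member; marker genes are named by list. Fos alone was picked on its values. A few genes of these lists are not reported here by name.

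Genes were kept by filterByExpr (minimum count 10, minimum total 15) and fitted with group alone in edgeR 4.0.16 (R 4.3.3; TMM, robust quasi-likelihood, two-sided, prior count 0.125). SEs were derived from F. Log2 changes are TP-18 minus vehicle. The 95% intervals use the moderated degrees of freedom and cover the spread between libraries only. Log2 CPM for likeness used a prior count of 2. Alternatives used DESeq2 1.42.0, limma 3.58.1 (filter of 0.5 FPKM in 3 libraries), other scalings and filters, and leaving out each library. Replicate libraries differed beyond sampling noise.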

Additional observations from a re-analysis of the deposited data

How the results depend on the processing

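There were 18 alternatives, 6 of which leave out a library. Each of those also has fewer tumors. Egr1 was called in 14 of the 18 and Klf10 in 8, and all 10 changes were negative in 16; Egr3 ran from -0.457 to 0.034 without one library, turning positive without vehicle 1 (0.034) and without TP-18 2 (0.032). Between 0 and 5 of the 10 genes were called without one library, with 388 to 1216 genes higher and 111 to 1023 lower over the whole table. As shares of tested genes, 0.766% to 6.99% were lower in those fits. DESeq2 called 5 of the 10 genes (Egr1, Klf4, Klf6, Klf10 and Ier2) and 1235 genes lower, 8.22% of the 15033 with an adjusted p. Total library counts, chosen after seeing the data, called 1 of the 10, 1593 genes higher and 268 (1.89%) lower. On log2(FPKM + 1) and log2(FPKM + 0.1), limma called 1 of the 10 each and 245 (2.02%) and 239 (1.97%) genes lower. Without a filter on low FPKM, limma called 0 of the 10 and 95 (0.411%) lower. RLE and upper-quartile scaling, the filter of 1 CPM, non-robust moderation and limma-voom called Egr1 and Klf10, with 4.59% to 5.43% of tested genes lower. The fit without a filter on low counts added Klf6, with 3.85% lower. Reads are not the limit for these genes, the lowest member count in a library being 255.

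No label says that a number pairs tumors. Deviations of same-numbered tumors correlated at 0.24, -0.08 and -0.04 across genes, and TP-18 1 alone had its highest correlation with the same-numbered vehicle tumor. With the replicate block, 547 genes were higher and 231 (1.63% of tested genes) lower, and 1 of the 10 genes was called, Egr1.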
